A study of Mus musculus with 4 samples.

Results

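CTCF binding strength was compared between distal and proximal mouse forelimb at the regions that carried a peak in both. Distal forelimb had 64793 peaks and proximal forelimb 63873 on chromosomes 1 to 19, X and Y. Peaks of the 2 lists that shared at least 1 base were merged into 73911 regions, of which 54525 held a peak of each list and form the set described here. Of the rest, 10149 were called in distal forelimb only and 9237 in proximal forelimb only, and the 4 lists of the whole series merged into 121759 regions. Both tissues were taken from wild-type embryos of strain B6CBAF1 at E12.5, a stage in days of embryonic age, per the characteristics, although the titles give E12, and the titles mark both libraries as older data analysed again. Chromatin was precipitated with the CTCF antibody Active Motif #61311. The series also holds a posterior trunk library of E10 and a brain library of E12.5, from the same strain and genotype, and its title names CTCF sites of the Hoxd cluster as the subject. How many forelimb embryos were used, and where the limb was cut, is not given in the labels. A single library stands for each forelimb piece, so nothing below is checked by replicates and the spread between embryos is unknown. Peak lists hold no expression values, so the tissue labels could not be checked against marker genes.

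CTCF is a zinc-finger protein that binds a long, GC-rich motif and stops cohesin as it extrudes chromatin loops, which places it at loop anchors and domain borders. In the limb bud its sites lie within and around the Hox clusters, whose genes pattern the limb from shoulder to digits, with enhancers for the distal and the proximal domain on opposite sides of Hoxd. Most CTCF sites are known to be occupied in many cell types. In a bulk sample, a site bound in fewer cells and a site bound less in each cell cannot be told apart.

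Strength was read from the fold at the peak summit, which is the authors' value: the ratio of the pileup of fragments to the local background, with 1 added to both. A fold describes a peak only within its own list, so each list was ranked over the same 54525 regions. The rank runs to 100 for the strongest region, and the shift is the distal rank minus the proximal rank in percentile points. The summit pileup was recovered from the fold and the p-value. Its exact 95% Poisson bounds were turned into a counting interval of the rank, which covers counting error only. For a region at rank 50, the distal pileup was 57 (43.2 to 73.9) and the rank interval 36.4 to 63.0. The proximal pileup at the same rank was 56 (42.3 to 72.7), with a rank interval of 36.0 to 63.1. A mid-strength region can therefore move by more than 10 points through counting alone.

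Sequence was read only in promoter windows, which 2796 of the 54525 shared regions overlapped. The stretches below therefore do not stand for shared regions in general. Stretches were taken from the RefSeq promoter windows of GRCm38.p6, the assembly of mm10, and are printed 5′ to 3′ on the strand of the gene. Capitals mark a match to the core letters of the CTCF motif, which were searched on both strands as CCA, then 2 unspecified bases, AG, again 2 unspecified bases, and GGC. On the other strand they read GCC, CT and TGG with the same gaps. The first set shows motif windows that ranked higher in distal forelimb: Mios, a subunit of the GATOR2 complex of nutrient sensing (chr6:8209079-8209179, + strand, shift 31.5 points), Axin2, a scaffold of the Wnt pathway's destruction complex (chr11:108920170-108920270, + strand, 23.6 points), and Tlr5, the flagellin receptor (chr1:182954712-182954787, + strand, 15.3 points).
Mios: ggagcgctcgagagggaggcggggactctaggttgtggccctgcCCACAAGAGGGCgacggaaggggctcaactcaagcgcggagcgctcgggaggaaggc
Axin2: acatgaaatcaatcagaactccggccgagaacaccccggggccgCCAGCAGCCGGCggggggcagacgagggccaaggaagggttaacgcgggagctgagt
Tlr5: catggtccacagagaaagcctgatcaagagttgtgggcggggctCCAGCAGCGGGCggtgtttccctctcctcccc
The second set ranked higher in proximal forelimb: Fyttd1, an mRNA export adaptor (chr16:32877703-32877783, + strand, -27.9 points), Zfp335os, an RNA gene named as antisense to Zfp335 (chr2:164911289-164911389, + strand, -25.6 points), and Ppp6r1, a regulatory subunit of protein phosphatase 6 (chr7:4658993-4659093, - strand, -25.3 points).
Fyttd1: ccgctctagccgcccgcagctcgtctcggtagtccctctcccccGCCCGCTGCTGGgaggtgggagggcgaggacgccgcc
Zfp335os: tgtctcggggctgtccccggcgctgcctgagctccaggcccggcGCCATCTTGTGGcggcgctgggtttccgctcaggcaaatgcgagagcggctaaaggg
Ppp6r1: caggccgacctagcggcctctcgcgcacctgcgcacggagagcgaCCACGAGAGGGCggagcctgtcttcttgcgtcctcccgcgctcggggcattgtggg
The third set was among the strongest in both tissues: Bclaf3 (chrX:159532472-159532572, + strand) and Csk, the kinase that restrains Src (chr9:57645654-57645753, - strand).
Bclaf3: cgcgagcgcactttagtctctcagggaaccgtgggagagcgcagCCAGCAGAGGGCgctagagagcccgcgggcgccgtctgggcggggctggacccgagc
Csk: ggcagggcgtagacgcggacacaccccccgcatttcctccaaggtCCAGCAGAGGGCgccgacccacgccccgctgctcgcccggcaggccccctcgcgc
The last set holds no match in the whole 300-base window: Rcc2, a mitotic chromosome and cytoskeleton regulator whose region had the largest shift among named regions at promoters (chr4:140701422-140701472, + strand), and Hoxd10 (chr2:74691755-74691855, + strand), a gene of the Hoxd cluster.
Rcc2: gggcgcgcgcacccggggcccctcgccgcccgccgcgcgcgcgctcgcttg
Hoxd10: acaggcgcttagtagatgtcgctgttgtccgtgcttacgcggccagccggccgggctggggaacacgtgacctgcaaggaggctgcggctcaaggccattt
The motif windows were chosen after their shifts were seen. The Rcc2 window holds the distal summit at its very edge and not the proximal summit, and the printed stretch holds neither. Whether a motif lies at that peak was therefore not read.

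At Mios the distal summit had a pileup of 65 and the proximal summit 42, with ranks of 59.8 and 28.3. The rank intervals were 46.9 to 72.9 and 10.7 to 43.9 and did not overlap. At Axin2 the pileups were 53 and 29, and the intervals of 17.1 to 45.4 and 0.16 to 27.7 did overlap. Fyttd1 had pileups of 62 in distal and 106 in proximal forelimb and ranks of 52.3 and 80.1, with intervals of 39.2 to 64.9 and 68.8 to 91.3 that stayed apart. Its motif match lay 93 bases from the distal and 79 bases from the proximal summit. At Ppp6r1 the pileups were 30 and 48, and the intervals overlapped. Csk had pileups of 259 and 267 and Bclaf3 249 and 249, all at ranks of 99.9 or above. The same core letters therefore stood in windows that ranked higher in either tissue and in windows that ranked alike.

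Across 32851 promoter windows of 300 bases, 797 (2.43%) held the motif letters. A shared region overlapped 10.003% of all windows and 39.6% of the motif windows. Both summits lay in 1818 windows, and 279 of these (15.3%) held the motif, at a median distance of 11 bases from the distal and 12 bases from the proximal summit. The regions with both summits in a window ranked higher where the motif was present, with a median mean rank of 80.1 over 255 regions against 63.8 over 1399. Their median shifts were -0.41 and -1.15 points, and 4 (1.57%) and 12 (0.858%) of them shifted by at least 25 points, against 2.04% of all shared regions. The GC content of the windows had a Spearman correlation of -0.027 with the shift over the 1654 regions whose summits both lay in a window, given as a description.

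Most shared regions held nearly the same place in both tissues. The Spearman correlation of the fold ranks was 0.946 over the 54525 regions, which share their genome and peak caller, and it is given as a description. The median absolute shift was 5.13 points. A shift under 5 points was found at 49.1% of regions and one under 10 points at 75.3%. The central 95% of shifts ran from -20.06 to 20.02 points, and the extremes were -51.8 and 70.5. Summits were also close, with a median distance of 10 bases and 99.04% within 100 bases. The strongest sites overlapped in part: 47 of the top 100 of each tissue were in both tops, 626 of the top 1000 (62.6%) and 4086 of the top 5000 (81.7%).

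A shift of at least 25 points counts as a large one below. Distal forelimb ranked that much higher at 567 regions (1.04%) and proximal forelimb at 548 (1.01%), together 1115 (2.04%). The values at the limit were 25.0032 points for the lowest distal shift counted and 24.9968 for the highest left out, with 25.0005 and 24.9986 in the proximal direction. The counting intervals of rank did not overlap at 122 regions with distal higher (0.224%) and 118 with proximal higher (0.216%), together 0.44% of all. With each rank taken over the whole list of its tissue, lists of unequal length, the numbers were less even, at 829 and 646 large shifts and 150 and 96 regions with separate intervals. These regions are the extremes of 54525 comparisons between 2 libraries. Whether they differ between embryos was not tested.

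**Figure D1:**
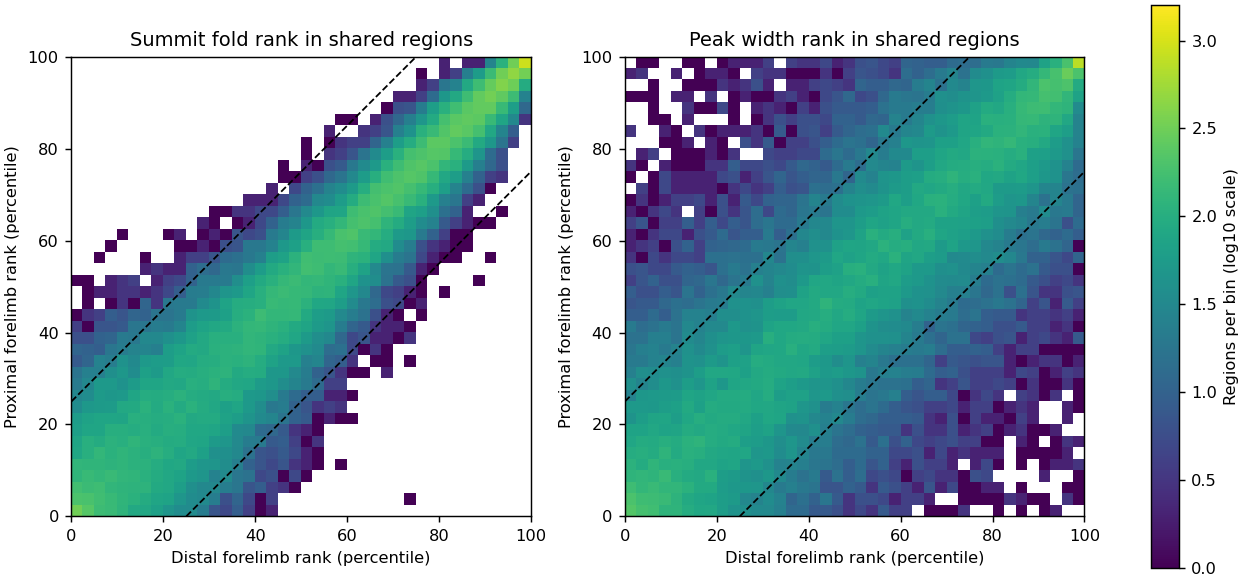
Rank of each of 54525 shared regions in distal (x axis) and proximal forelimb (y axis), in percentiles, by summit fold (left) and by peak width (right); colour gives the number of regions per bin on a log10 scale and dashed lines mark 25 points. Fold ranks lie close to the diagonal, with 2.04% of regions outside the lines, and width ranks spread more widely.

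Large shifts were found among regions of low to middle strength. By deciles of the mean rank, the share with a large shift was highest in the third decile, at 3.93% for distal and 4.15% for proximal. It was 0 in the weakest decile and in the strongest 2 deciles; in the outermost deciles the rank scale itself leaves too little room for a shift of that size. The median absolute shift was 9.64 points in the second decile and 1.74 points in the strongest. The median pileup of these deciles was 26 and 222 in distal forelimb, and the median width of the rank interval was 32.7 and 12.1 points. Counting error thus moved with the size of the shifts across deciles, and its part in them was not tested.

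**Figure D2:**
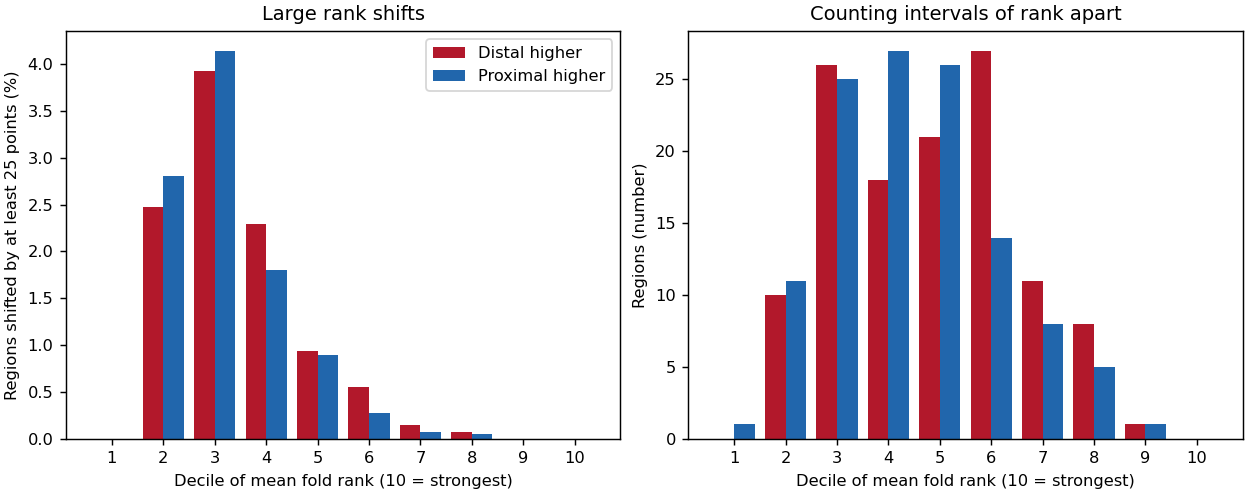
Share of regions shifted by at least 25 points (left, percent) and number of regions whose counting intervals of rank do not overlap (right), by decile of the mean fold rank with 10 the strongest; red bars are distal higher and blue bars proximal higher. The left bars peak at 3.93% and 4.15% in decile 3, and both directions have similar heights.

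The largest shift of all was at Etv4, an ETS transcription factor gene switched on by FGF signalling in limb mesenchyme. The region chr11:101769793-101770643, within 1 kb of an end of the gene span, had a summit pileup of 288 in distal and 19 in proximal forelimb. The authors' folds of 12.8 and 3.07 placed it at rank 73.1 (66.4 to 80.0) and 2.67 (0.013 to 22.9), a shift of 70.5 points. The peak was 851 bases wide in distal and 569 in proximal forelimb. The local background at this summit was 21.5 in distal and 5.52 in proximal forelimb, a log2 ratio of 1.96, where the next highest of all shared regions was 0.60 and the median -0.065. The part of this background in the result was not tested. Ranked by pileup alone the shift was 96.5 points, and ranked by p it was 93.3. Brain had a peak at this place with a pileup of 69 and a fold of 5.62, and posterior trunk had no peak within the region. A trunk peak with a pileup of 93 and a fold of 6.80 lay 1885 bases beyond it. A neighbouring region 5511 bases away, chr11:101763668-101764282, had pileups of 197 and 198 and ranks of 86.8 and 88.2. The signal at Etv4 thus stood apart in distal forelimb while the nearby site was level between the tissues.

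The other regions with large shifts to distal had lower pileups, and the 12 with the largest shifts and separate counting intervals are given here. Near Gm8228 (chr9:84949079-84949434), 371 kb from the coding gene Tent5a, the pileup was 60 in distal and 21 in proximal forelimb, ranks of 59.8 and 10.9. At the start of Rcc2 (chr4:140701377-140701653), whose promoter stretch is printed above, pileups of 44 and 18 gave ranks of 49.7 and 5.86. A region on chromosome X near Gm16436 (chrX:58756461-58756842) had pileups of 54 and 20. Within 1 kb of Olfr159, an odorant receptor gene (chr4:43769391-43769718), they were 52 and 22. The shifts at these 4 places were 48.9, 43.9, 43.3 and 43.1 points.

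Regions inside gene spans followed. Fgf12, which encodes an intracellular regulator of sodium channels, held chr16:28337963-28338292 with pileups of 41 and 19 and a shift of 42.2 points. Maml2, a coactivator of Notch signalling, held chr9:13572901-13573255 with 47 and 18, also 42.2 points. The other members were Kifc3, a minus-end-directed kinesin (47 and 21), Ptprd, a receptor tyrosine phosphatase (56 and 21), Mthfsl (53 and 24) and Ppm1l, a protein phosphatase (53 and 23), together with a region near 1700019L22Rik (48 and 23). Their shifts lay between 40.3 and 41.5 points. Apart from Etv4 (288), distal pileups in this group lay between 41 and 60, and proximal pileups of all 12 between 18 and 24.

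In the opposite direction the largest shift was near Gm31517 (chr14:15119713-15120197), 108 kb from Nek10, a kinase gene of the NIMA family. The pileup was 17 in distal and 50 in proximal forelimb, ranks of 5.72 and 57.5 and a shift of -51.8 points. Inpp4b, a phosphoinositide phosphatase gene, held chr8:81812445-81812812 with pileups of 19 and 58 and a shift of -50.5 points. The region near Gm18834 (chr14:37165310-37165654), 30.0 kb from Ghitm, had 20 and 60, also -50.5 points. Adamts3, a protease of procollagen maturation, held chr5:89839629-89839994 with 21 and 59 and a shift of -47.6 points. At an end of Slc24a4, a sodium, calcium and potassium exchanger, chr12:102128826-102129251 had 16 and 43, also -47.6 points.

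The remaining 7 of these 12 shifted by between -45.0 and -41.7 points. They lay near Disc1, a scaffold protein gene (pileups 23 and 61), near Adss, an enzyme of AMP synthesis (23 and 58), and near Gm18280 on chromosome 18 (13 and 39). The others were near Rpl21-ps10 (17 and 43), inside Baz2b, a bromodomain gene (24 and 58), at Gm33123 (28 and 67) 27.2 kb from the Wnt receptor gene Fzd6, and by an end of Magi3, a scaffold of cell junctions (20 and 47). Proximal pileups of all 12 lay between 39 and 67 and distal ones between 13 and 28, so the groups of values did not overlap, as the choice of the regions fixes. None of the genes named here for the largest shifts in either direction is in the limb gene lists used below.

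**Figure D3:**
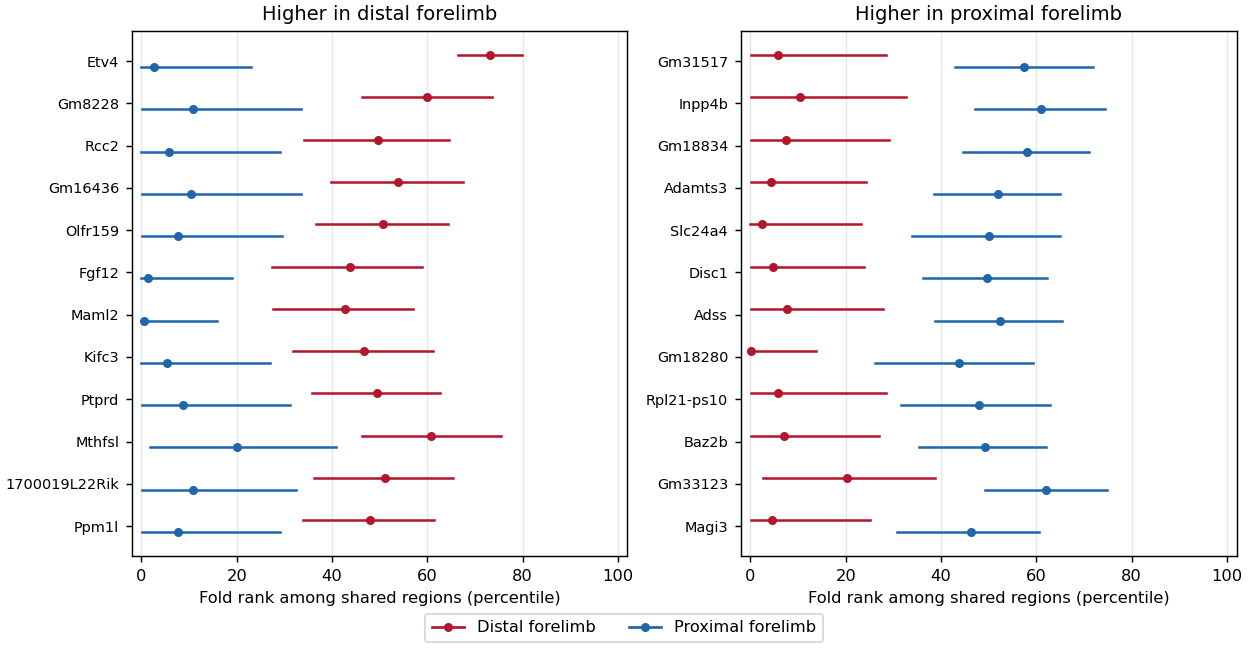
Fold rank (percentile of 54525 shared regions) of the 12 regions with the largest shift to distal (left) and to proximal forelimb (right), named by the gene that holds them or the nearest gene; points are ranks, lines their 95% counting intervals, red distal and blue proximal. Etv4 stands out at ranks 73.1 and 2.67, and all other regions reach at most rank 62.1 in their stronger tissue.

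Separate counting intervals and a shift of at least 25 points were found together at 103 regions with distal higher and 96 with proximal higher. In the first set the median pileup was 63 in distal and 31 in proximal forelimb at local backgrounds of 5.82 and 5.86, and the median width 376 and 312 bases. In the second the median pileup was 27.5 and 60, the backgrounds 5.75 and 6.48, and the width 316 and 371 bases. These values chose the regions and are a description.

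The trunk and brain lists took no part in the choice of these regions. Of the 103, 99 (96.1%) were also called in both trunk and brain, and of the 96, 86 (89.6%), against 95.3% of all shared regions. Ranked over the 51966 regions called in all 4 tissues, the first set had a median rank of 55.2 in distal, 19.8 in proximal, 47.6 in trunk and 37.9 in brain. Trunk was nearer to distal than to proximal at 71 of these 99 regions and brain at 64, against 54.4% and 51.9% of all 51966 regions. Trunk lay between the 2 forelimb ranks at 53, above both at 35 and below both at 11, and brain at 84, 10 and 5. The second set had medians of 13.0 in distal, 51.3 in proximal, 26.5 in trunk and 36.1 in brain. Here trunk was nearer to distal at 51 of 86 and brain at 41. Trunk lay between the forelimb ranks at 58, above both at 9 and below both at 19, and brain at 66, 12 and 8. The regions were chosen for forelimb ranks far apart, so a place between them says little. Among single regions, Inpp4b ranked at 88.4 in trunk and 19.8 in brain, and the region near Gm18834 at 47.5 and 79.7.

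Large shifts were also counted by presence in the other tissues. Of the 51966 shared regions called in trunk and brain, 1.98% shifted by at least 25 points. The share was 3.00% of 1801 called in trunk and not brain, 4.24% of 354 called in brain and not trunk, and 4.21% of 404 called in neither. The median mean rank was 52.1 in the first class and between 9.29 and 12.8 in the others, so strength moved with presence, and its part in the shares was not tested.

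Peak width varied more than the fold. The Spearman correlation of width ranks was 0.829 over the shared regions, and the median absolute shift of width rank was 8.76 points. Median widths were 390 bases in distal and 389 in proximal forelimb. Distal peaks ranked at least 25 points wider at 3382 regions (6.2%) and proximal peaks at 3349 (6.14%). Fold and width moved past 25 points in the same direction at 158 regions with distal higher and 147 with proximal higher, and in opposite directions at 28 and 15. The correlation between the fold shift and the width shift was 0.195, although fold and width correlated at 0.823 in distal and 0.828 in proximal forelimb across regions.

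The largest width differences lay at weak peaks. Each width is that of the strongest interval of the list in the region. Proximal forelimb had 2 intervals in the Baz2b, Phip and Gm32647 regions named here, and distal forelimb had 2 at Gm30604. In these regions the narrower tissue was thus called in pieces, and only the strongest piece is given. In Baz2b, chr2:60044612-60045348 was 727 bases wide in distal and 218 in proximal forelimb, with pileups of 37 and 30. Phip, a chromatin reader gene, had 599 and 200 bases, Ntsr1, the neurotensin receptor gene, 581 and 200, and Stom, a membrane scaffold gene, 618 and 224. Regions near Vmn2r112 and Gm32647 had 735 and 234 and 618 and 222 bases. In the other direction a region near 4930553C11Rik (chr11:39411124-39411848) was 210 bases wide in distal and 725 in proximal forelimb. Gm30604 had 204 and 651, Gm31963 200 and 625, and Cdyl2, a chromodomain gene, 223 and 637. Cd24a, a cell-surface glycoprotein gene, had 213 and 620 bases at pileups of 48 and 46. Gm50595, on the Mtx2 side of Hoxd, had 229 and 748 bases while its fold rank shifted by -0.095 points. The summits compared there lay 329 bases apart, with 2 called in proximal forelimb, so the 2 ranks may not describe the same site. Of the 12 named here, only the region near Vmn2r112 also shifted by at least 25 points in fold rank, at 25.8.

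The number of summits moved with width. Several summits were called in distal forelimb only at 343 regions, and 44.9% of these ranked at least 25 points wider there. At 302 regions with several summits in proximal forelimb only, 41.1% ranked that much wider in proximal forelimb. Where both had 1 summit, over 53235 regions, the shares were 5.92% and 5.90%. Among these classes the fold shift had medians of -2.41, 0.17 and -0.061 points.

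By position, regions within 1 kb of an end of a coding gene span leaned towards proximal forelimb by a small amount. The median shift over these 6652 regions was -1.11 points against 0.068 over the others, and 41.7% of them were above 0 against 50.5%. A large shift was found with distal higher at 36 (0.541%) and proximal higher at 81 (1.22%), against 1.04% and 1.01% of all regions. Separate counting intervals were found at 8 and 21 of these 6652 regions, against 0.224% and 0.216% of all regions. The difference between these counts was not tested. Inside coding gene spans large shifts were found at 243 and 231 of 24398 regions (0.996% and 0.947%). Outside them they were found at 288 and 236 of 23475 (1.23% and 1.01%).

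Regions at gene ends that overlapped a promoter window had a median shift of -1.22 points over 2068 regions. Large shifts were found at 11 (0.532%) for distal and 14 (0.677%) for proximal. The other 4584 had a median of -1.05 points, with large shifts at 25 (0.545%) and 67 (1.46%). The shares over all regions were 1.04% and 1.01%. The median log2 ratio of the distal to the proximal pileup was -0.029 at gene ends and 0.0081 elsewhere. The median local background was 8 in distal and 8.34 in proximal forelimb at gene ends, against 6.90 and 7.22 elsewhere. Ranked by pileup, which leaves the background out, the median shift at gene ends was -0.76 points.

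The Hoxd cluster, the subject of the study's title, held 10 shared regions from Evx2 to Hoxd1, and none shifted by 25 points or had separate counting intervals. With 2.04% and 0.44% of all regions past these limits, a count of 0 among 10 regions does not set the cluster apart. The median shift was -2.14 points, with 3 regions above 0. The largest shift to distal was at Evx2, the homeobox gene beside Hoxd13, where chr2:74655286-74655747 had pileups of 178 and 111 and ranks of 84.3 and 74.2. Its peak was 462 bases wide in distal and 360 in proximal forelimb, and its rank among regions called in all 4 tissues was 41.8 in trunk and 43.6 in brain. Next to it, chr2:74655811-74656094 had pileups of 37 and 34, and chr2:74661509-74662168, within 1 kb of an edge of the Evx2 span, had 73 and 91. These 2 shifted by -8.30 and -12.7 points.

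Beside Hoxd13, the most distally expressed Hoxd gene, chr2:74672939-74673329 had pileups of 144 and 123 and ranks of 78.0 and 72.2. Between Evx2 and Hoxd13, chr2:74663517-74664009 had 188 and 200 and ranks of 73.1 and 79.6. The region in both Hoxd11 and Hoxd10, chr2:74686188-74686743, had 214 and 191 and ranks of 88.2 and 89.4. At the Hoxd10 promoter printed above the pileups were 81 and 78 and the ranks 31.1 and 33.3. A further Hoxd10 region, chr2:74693985-74694494, had 170 and 189 and ranks of 66.0 and 79.8, a shift of -13.8 points that was the lowest in the cluster. Near Hoxd9, chr2:74702164-74702657 had 221 and 203 and ranks of 90.6 and 92.6, and in Hoxd3, chr2:74715668-74716390 had 184 and 177 and ranks of 84.7 and 81.6. Across Hoxd, 7 regions ranked at 66.0 or above in both forelimb pieces and 3 at 36.2 or below in both, and the counting intervals of rank overlapped at each.

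**Figure D4:**
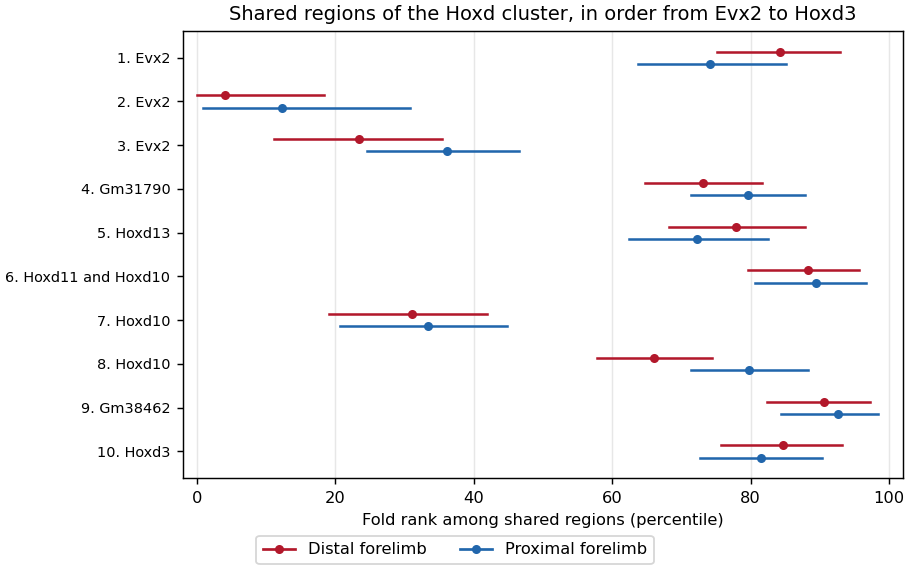
Fold rank (percentile of shared regions) of the 10 shared regions of the Hoxd cluster in order from Evx2 to Hoxd3; points are ranks, lines 95% counting intervals, red distal and blue proximal forelimb. The intervals overlap at each region, and the widest gaps are at the last Hoxd10 region (66.0 and 79.8) and the third Evx2 region (23.5 and 36.2).

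The gene-poor stretches on both sides of Hoxd hold limb enhancers. On the Lnpk side, home of enhancers of the distal domain, 15 regions had a median shift of 1.45 points and a range from -11.9 to 18.9. On the Mtx2 side, home of enhancers of the proximal domain, 24 regions had a median of -1.61 points and a range from -13.4 to 14.9. No region passed 25 points on either side. With 2.04% of all shared regions past that limit, the lack of such regions among 15 and 24 does not set either side apart. The difference between the 2 medians was not tested.

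Other limb loci had medians between -6.66 and 5.61 points. The Hoxa cluster to Evx1 had 14 regions with a median of -2.43 points. Its lowest was at Hoxa11os, an antisense RNA gene beside Hoxa11 (chr6:52248625-52248916), with pileups of 26 and 39 and a shift of -24.1 points. Hoxb, with 12 regions, had a median of -2.45 points and Hoxc, with 4, had -6.66. The Meis1 domain, whose gene marks the proximal limb, had a median of 5.61 points over 24 regions and a range from -19.8 to 21.2. Its median absolute shift of 11.6 points was the highest among the loci, against 5.13 over all shared regions. Meis2, with 8 regions, had a median of -4.31 points. Medians of the other domains were 1.05 points for Shh to Mnx1, 1.55 for Kcnj2 to Sox9, 1.18 for Epha4 and Pax3, -0.48 for Tbx5 and Tbx3, -0.72 for Grem1 and 0.11 for Irx3 to Irx6.

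Over all 14 loci, 4 of 302 regions passed 25 points, and no pair of counting intervals stayed apart. The background shares were 2.04% and 0.44%. All 4 ranked higher in distal forelimb. In the Tbx5 and Tbx3 domain, near limb transcription factor genes, chr5:119145761-119146075 had pileups of 46 and 23 and ranks of 44.02 and 10.02, and chr5:118975631-118976125 had ranks of 45.0 and 16.6. Between Kcnj2 and Sox9, the master gene of cartilage, chr11:113338668-113338932 in Slc39a11 had pileups of 47 and 30 and ranks of 53.1 and 26.5, and chr11:112404955-112405268 had ranks of 35.4 and 8.81. The lowest value in the Tbx5 and Tbx3 domain was within 1 kb of an edge of the Tbx3 span (chr5:119670378-119670957), with pileups of 107 and 132 and a shift of -18.5 points.

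**Figure D5:**
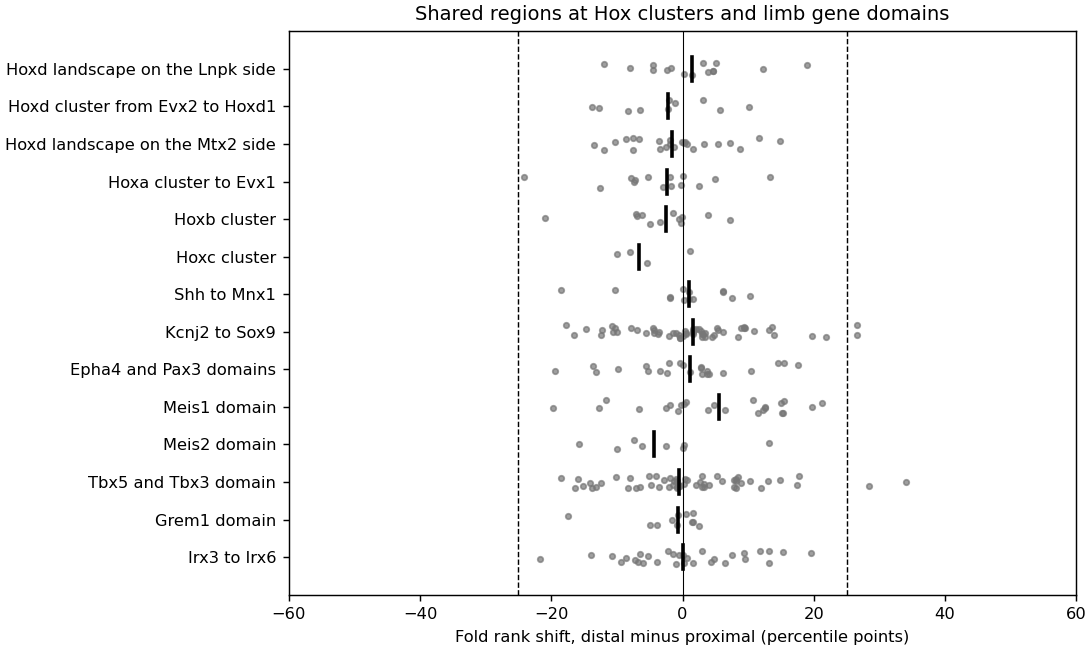
Fold rank shift, distal minus proximal, in percentile points (x axis) of the 302 shared regions at 14 Hox clusters and limb gene domains; each dot is a region, the short line the median of the locus, and dashed lines mark 25 points. The 4 dots past the lines lie in the Kcnj2 to Sox9 and the Tbx5 and Tbx3 domains, and medians lie between -6.66 and 5.61.

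Regions within 50 kb of listed genes were counted by group. Near 30 distal limb genes, such as Hoxa13, Msx1 and Sall1, 129 regions had a median shift of 0.10 points and none passed 25. Of 30 proximal limb genes, such as Meis1, Shox2 and Tbx5, 29 had a shared region within 50 kb. Their 154 regions had a median of -1.25 points and 1 passed. That region (chr9:71179998-71180377) lay within 50 kb of Aldh1a2, a gene of retinoic acid synthesis, and nearest to Aqp9, with pileups of 24 and 45 and a shift of -32.6 points. Nearest to the limit among distal limb genes was a region by Sall1, a zinc-finger gene of digit formation, with pileups of 37 and 61 (-24.4 points). Then came the Hoxa11os region given above, which lies within 50 kb of Hoxa13 (-24.1). By Bmp4, a growth factor gene of limb outgrowth, pileups were 36 and 22 (23.8 points). Among proximal limb genes, Runx1 held a region with pileups of 70 and 40 (24.4 points), and the Hoxa11os region counts there too. Genes of the proximal list went either way. The median was 10.8 points over 3 regions at Meis1 and 20.6 at the 1 region of Shox2. It was -8.77 over 8 regions at Rarb, -7.17 over 8 at Aldh1a2 and -1.11 over 8 at Tbx5. In the whole proximal list, 67 of 154 regions had a shift above 0. The distal and proximal lists share regions, among them those at Hoxd and Hoxa, so their medians are not separate values. Counted together and once each, 1 of 262 regions near limb genes (0.382%) passed 25 points, against 2.04% of all.

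The other groups are read against the 2.04% of all shared regions that passed 25 points. Near cartilage and bone genes, 3 of 142 regions passed (2.11%), near that share: 2 in Sox5, a partner of Sox9, with distal higher (26.9 and 25.6 points), and 1 by Wwp2 with proximal higher (-26.8). Near muscle genes, 2 of 76 passed (2.63%), both with proximal higher. The larger shift was in Eya1, a transcriptional cofactor of early muscle precursors, with pileups of 20 and 37 and a shift of -34.8 points. Near blood and endothelial genes, 1 of 84 passed, in the ETS gene Fli1 (21 and 41, -30.4). Among 46 regions near nerve and neural crest genes and 46 near limb ectoderm genes none passed. Near housekeeping genes 2 of 146 passed, in Chd4 by Gapdh (29.1) and in Nono (-27.3), and near known CTCF loci 2 of 134 passed, by Dusp5 near the cohesin gene Smc3 (-34.5) and at the Pcdhg cluster (32.9). Over all 9 lists, 11 of 936 regions passed 25 points (1.18%, against 2.04% of all regions), and none had separate counting intervals, against 0.44% of all.

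Median shifts over neighbouring regions were small. In 2839 windows of 500 kb with at least 8 shared regions, the central 95% of median shifts ran from -4.92 to 5.35 points. The highest median was 10.8 points over 8 regions in the window of Tcf4, a bHLH factor gene, followed by 10.5 over 10 regions on chromosome X by Ubqln2. Windows at Enox1 (10.1 over 15 regions), at Fam155a and Lig4 (9.26 over 8) and at one on chromosome 5 with no coding gene (9.15 over 18) came next. The lowest were at Zswim6 (-15.4 over 9 regions), Flrt2, a guidance receptor ligand gene (-11.5 over 9), and Rbfox1, a splicing factor gene (-11.3 over 8). After them came a window on chromosome X with Arhgef6 and Rbmx (-10.7 over 9) and that of Parm1 (-10.1 over 8). At Zswim6, 7 of 9 regions ranked higher in proximal forelimb, and 2 of them by at least 25 points. By chromosome, medians lay between -0.28 on chromosome 7 and 0.14 on chromosome 10. The share past 25 points ran from 1.41% on chromosome 14 to 3.28% on X, against 2.04% of all regions. It was 3.23% of 31 regions on Y and 2.67% on chromosome 18.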

How the data were processed

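CTCF chromatin immunoprecipitation and sequencing gave 1 deposited narrowPeak list per library. The submitters' processing notes name MACS2 2.1.1.20160309, SAMtools 1.9, Bowtie2 2.3.5 and cutadapt 1.16, on build mm10. Their options, any control library and any removal of repeated reads are not stated there or in the labels. In each row the authors deposited a fold (the ratio of summit pileup to local background, each with 1 added), a −log10 p-value and −log10 q-value, a score made from the q-value and a summit offset in bases. Ranks use the fold within a list only.

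Rows with the same interval were collapsed to the strongest summit (939 distal, 914 proximal). Pileup and background were solved from fold and p, with a largest error in −log10 p of 0.0003. Read totals are not in the lists. The lowest background, which scales with depth, was 4.23 in distal and 4.58 in proximal forelimb, a relative depth of 1 and 1.08. Median pileups over shared regions were 67 and 66, and median folds 8.29 and 7.87. Exact Poisson intervals cover counting error only, since PCR reads without molecular identifiers are not independent molecules.

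Gene spans are those of RefSeq GRCm38.p6, without exons. The members, the 9 gene lists (164 genes, all matched) and the 14 loci were chosen with earlier results of these data known. Named regions are the 12 largest fold shifts per direction with separate counting intervals, the 6 largest width shifts, the 5 most extreme windows, all regions from Evx2 to Hoxd1, the extremes of each other locus and the 3 largest shifts of each list, of which the text gives a selection; 1 of them is not reported here. Alternatives were other rankings, stricter overlap and q limits, single intervals, close summits, autosomes and other gene windows. With 1 library per tissue no test was made. Scripts ran in Python 3.11.15 with pandas 2.3.3, numpy 2.4.6, scipy 1.17.1 and matplotlib 3.10.9, and were tested on simulated data.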

Additional observations from a re-analysis of the deposited data

Results flagged for a closer look

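Shared regions outside chromosomes 1 to 19, X and Y entered no comparison. There were 4 on the mitochondrial sequence and 57 on unplaced and unlocalised sequences. They are listed because peaks were called there in both tissues and no library without CTCF antibody was used here to set a level for such signal.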

How the results depend on the processing

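Ranking by −log10 p in place of the fold gave 361 large shifts to distal and 362 to proximal forelimb and a Spearman correlation of 0.956. Ranking by recovered pileup gave 209, 216 and 0.963. The cause was not tested. The width correlation was 0.843 with a reciprocal overlap of at least 50% and 0.834 with summed widths. With 20 kb around genes, 0% of regions near proximal limb genes passed 25 points, and with 100 kb 1.53%, beside 0.521% near distal limb genes. The median shift at gene ends was -0.87 by −log10 p, -0.76 by pileup and -0.66 by percentile in the whole list, settings chosen after seeing the data. Of 38 named regions past 25 points, all 38 kept their sign under these 3 rankings, and 33, 29 and 36 stayed past 25. Large shifts chose most of these regions and all rankings draw on the same summits, so this is no separate check. Of 59 named regions under 25 points, 56, 51 and 58 kept their sign. No paired analysis was possible because a single library stood for each forelimb piece, and for the same reason no replicate could be left out. Depth limits the ranks: a pileup near 57 leaves an interval of more than 25 rank points, and the median distal interval was widest, at 34.1 points, in the third decile of strength.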
